A study of Rattus norvegicus with 9 samples.

Results

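Sox10, Erbb3, S100b and Fgfr3 are genes used to mark neural crest and glial cells, and they were followed here through all 9 libraries of a rat cell line exposed to valproate or lithium. They were picked by name from the authors' deposited lists of genes that differed between valproate and control cells, and matched to the count table by Ensembl identifier. All 4 were found among 32662 genes of that table, of which 12719 had enough counts to be tested, and all 4 passed that filter. Because valproate against control chose them, their values in that contrast are a description and carry no test here.

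The cells were RN46A, a conditionally immortalised rat line from the embryonic raphe that the labels call serotonergic. VPA libraries (n = 3) came from differentiated cells given 0.5 mM valproate (VPA) for 72 h, and lithium libraries (n = 3) from differentiated cells given 0.5 mM lithium for the same time. Control libraries (n = 3) came from differentiated cells with neither drug. Cells of all 3 groups had first been moved from growth at 33 °C in 5% serum to differentiation for 72 h at 39 °C in 1% serum, and the RNA was sequenced without strand information. The line is a single immortalised source, and nothing says that libraries came from separate cultures, so a p-value here measures only the spread between these libraries. Libraries held 9580591 to 13030300 counted reads. Levels are given in CPM (counts scaled to the library total with TMM factors), where 1 count was worth 0.0770 to 0.109 CPM. Defining serotonergic genes such as Tph2 and Slc6a4 have no name in the deposited tables and were not analysed here. Of 17 serotonergic genes listed, Maob and Htr5b had a name and enough counts.

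Sox10 is a transcription factor that specifies neural crest derivatives and is kept on in Schwann cells, oligodendrocytes and melanocyte precursors. It activates Erbb3, the receptor through which neuregulins support Schwann cells and their precursors. Erbb3 has a weak kinase of its own and signals in pairs with other ErbB receptors. Fgfr3 is a receptor tyrosine kinase for fibroblast growth factors that marks astrocytes and their precursors in the nervous system. S100b is a small calcium-binding protein abundant in astrocytes and Schwann cells. Valproate inhibits histone deacetylases, while lithium inhibits glycogen synthase kinase-3.

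RefSeq promoter sequences (rat build GRCr8, 250 bases before to 50 after the gene's start) were matched for 2 of the 4 genes, S100b and Fgfr3. Only these are shown because none was available here for Sox10 or Erbb3. S100b was lower and Fgfr3 higher in VPA cells, and 2 genes allow no link between promoter letters and direction. Both lie on the minus strand, at chr20:12381032-12381331 for S100b and chr14:81227160-81227459 for Fgfr3, and are written 5′ to 3′ along the gene. Capitals mark CpG dinucleotides.
S100b: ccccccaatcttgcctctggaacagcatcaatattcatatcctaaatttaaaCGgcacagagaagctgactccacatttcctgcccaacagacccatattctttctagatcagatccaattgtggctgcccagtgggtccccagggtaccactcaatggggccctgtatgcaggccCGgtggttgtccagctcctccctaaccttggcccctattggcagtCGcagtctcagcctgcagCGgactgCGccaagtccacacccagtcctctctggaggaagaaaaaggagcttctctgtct
Fgfr3: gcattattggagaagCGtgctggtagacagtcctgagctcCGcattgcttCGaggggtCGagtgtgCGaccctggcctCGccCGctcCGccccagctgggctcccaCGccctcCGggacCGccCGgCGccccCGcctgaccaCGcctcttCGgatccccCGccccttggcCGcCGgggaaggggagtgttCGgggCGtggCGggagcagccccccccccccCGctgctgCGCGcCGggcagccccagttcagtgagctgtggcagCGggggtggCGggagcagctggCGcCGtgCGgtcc
The Fgfr3 window held 31 CpG dinucleotides at 74.7% G+C, against a median of 7 and 51.7% over 33469 RefSeq promoters of the same length. Fewer CpGs were found in 90.7% of promoters. The S100b window held 5 CpG dinucleotides at 54.0% G+C, and 56.3% of promoters held more. The GC box GGGCGG, searched on both strands, occurred 3 times in the Fgfr3 window and 0 times in the S100b window. It was present in 33.1% of all promoters. The SOX core motif, searched on both strands as ACAAAG, where the opening A and the A before the closing G may each be T, occurred 1 time in the S100b window and 0 times in the Fgfr3 window. It was present in 44.9% of promoters. These matches describe letters in the windows, and binding or chromatin were not measured.

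Sox10 (ENSRNOG00000011305) was almost unread in control and lithium cells and was detected in every VPA library. It had 21, 22 and 47 counts in VPA libraries 1, 2 and 3. It had 1, 1 and 6 counts in the lithium libraries and 0, 1 and 2 counts in the control libraries. The lowest VPA library thus lay above the highest of the other 6, and the library numbered 3 was the highest of each group. Levels averaged 2.59 ± 1.09 CPM in VPA cells, 0.212 ± 0.217 CPM in lithium cells and 0.0954 ± 0.0896 CPM in control cells (SD, n = 3 each). Its mean CPM over all libraries, which is not scaled for gene length, exceeded that of only 3.43% of the genes tested. The 0 in control library 1 allows a level of up to 0.272 CPM, by a limit of 3 counts. Summed counts of 90 in VPA and 3 in control gave a ratio of 27.3 after scaling, with a 95% exact interval of 9.05 to 135. That interval covers counting error only, as do the others on summed counts below. The fitted log2 fold change of VPA against control was 4.61 ± 0.74 (SE), the 11th highest of the genes tested. It depends on the fit's prior count, since the controls hold 3 counts in all. With 1 library left out it ran from 4.05 without control library 1 to 5.43 without control library 3. RefSeq places the gene on chromosome 7 beside Polr2f, with no overlap between them.

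Erbb3 (ENSRNOG00000004964) was well detected in every library and clearly higher in VPA cells. It stood at 26.5, 28.1 and 25.4 CPM in VPA libraries 1, 2 and 3. It stood at 5.86, 9.12 and 7.09 CPM in the lithium libraries and at 4.90, 4.12 and 7.29 CPM in the control libraries. The VPA libraries lay close together and far above the other 6, while the lithium and control ranges overlapped. The means were 26.6 ± 1.35 CPM in VPA cells, 7.36 ± 1.65 CPM in lithium cells and 5.44 ± 1.65 CPM in control cells (SD, n = 3 each). VPA against control had a fitted log2 fold change of 2.28 ± 0.25 (SE), a 4.87-fold difference and the 169th highest of the genes tested. Taken by library number, VPA over control was 5.4, 6.8 and 3.48. The smallest ratio was that of number 3, whose control library had the highest control level. The authors' deposited Cufflinks table places Erbb3 on chromosome 7 from 2989339 to 3010350, in a build not given in the sources used here.

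Fgfr3 (ENSRNOG00000016818), the other receptor, was also higher in VPA cells. Its levels were 6.47, 5.89 and 6.42 CPM in VPA libraries 1, 2 and 3. They were 2.15, 3.16 and 1.69 CPM in the lithium libraries and 1.81, 1.95 and 2.31 CPM in the control libraries. Every VPA library exceeded every other library, and the lithium libraries spanned the whole control range. The means were 6.26 ± 0.324 CPM in VPA cells, 2.34 ± 0.748 CPM in lithium cells and 2.03 ± 0.256 CPM in control cells (SD, n = 3 each). The fitted log2 fold change of VPA against control was 1.62 ± 0.28 (SE), a 3.08-fold difference and the 375th highest. By library number the ratios were 3.57, 3.02 and 2.78. The authors' deposited Cufflinks table places it on chromosome 14 from 82272328 to 82287760, in a build not given.

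S100b (ENSRNOG00000001295) went the other way. Its counts were 24, 14 and 19 in VPA libraries 1, 2 and 3, which correspond to 1.87, 1.5 and 1.53 CPM. Lithium libraries had 4.91, 3.33 and 3.08 CPM, and control libraries 4.54, 3.26 and 4.18 CPM. All VPA libraries lay below all others, lithium and control overlapped, and library 1 was the highest of each group. The means were 1.63 ± 0.208 CPM in VPA cells, 3.78 ± 0.992 CPM in lithium cells and 3.99 ± 0.660 CPM in control cells (SD, n = 3 each). The fitted log2 fold change of VPA against control was -1.28 ± 0.30 (SE), a ratio of 0.411 and the 192nd lowest of the genes tested. By library number the ratios were 0.413, 0.460 and 0.365. The authors' deposited Cufflinks table places S100b on chromosome 20 from 13130635 to 13142856, in a build not given. S100b overlaps Dip2a in RefSeq, and because the reads carry no strand, reads of the overlap cannot be told apart.

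**Figure D1:**
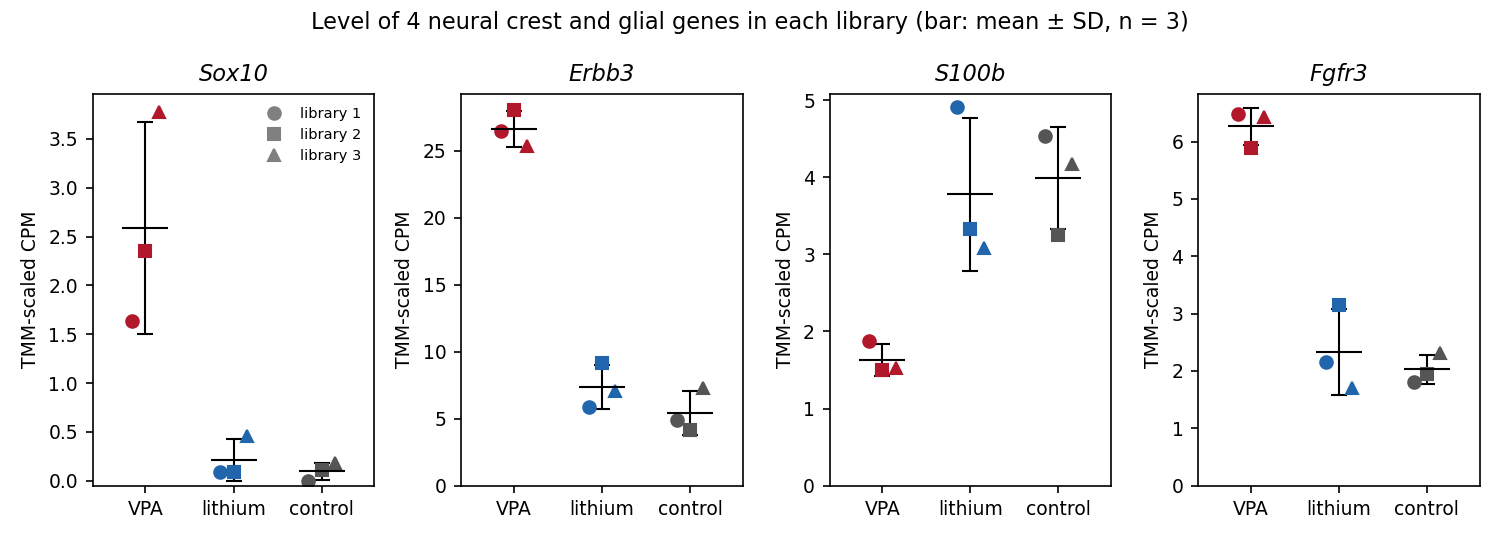
TMM-scaled levels in CPM (vertical axes from 0, a separate scale for each gene) of Sox10, Erbb3, S100b and Fgfr3 in VPA, lithium and control libraries. Symbols give the library number, the long bar is the mean and the whiskers are the SD (n = 3). VPA libraries lie above all others for Sox10, Erbb3 and Fgfr3 and below all others for S100b, where the VPA mean is 1.63 CPM.

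The plot of levels by library shows the same separation for each gene. All 4 lay on the same side of all 6 lithium and control libraries in every VPA library, 3 above and 1 below. Of all genes tested, 11.7% had every VPA library above those 6 and 8.59% had every VPA library below them. For VPA against control all 4 were called by edgeR's quasi-likelihood test, which here means a Benjamini-Hochberg adjusted p under 0.05. That test called 8.7% of the 12719 genes, 726 of them (5.71%) higher and 380 (2.99%) lower in VPA cells. Nothing is read from that count, since the contrast chose the genes. S100b lay nearest to the threshold: its edgeR adjusted p was 0.0526, 0.0738 and 0.0710 without VPA library 1, 2 or 3, and 0.0693 and 0.0506 without control library 1 or 3. In these bulk samples fewer cells of a type and less RNA per cell cannot be told apart.

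Levels can be compared between genes only per length, and the authors' deposited Cufflinks table gives 1 FPKM value (fragments scaled by transcript length and library total) per group, with no replicate spread. In VPA cells that table has Erbb3 at 3.68, Fgfr3 at 1.63 and S100b at 1.01 FPKM. In control cells the same table has S100b at 2.69, Erbb3 at 0.81 and Fgfr3 at 0.54 FPKM. The order by length-scaled level thus had Erbb3 first in VPA cells and S100b first in control cells. No Sox10 value was taken from that table, where it is not listed.

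The authors' other deposited tables quantify the same libraries in other ways and give the same directions, which is a description of 1 set of reads and no independent evidence. The authors' deposited DESeq2 table lists log2 fold changes of VPA over control, printed to 1 decimal, of 2.2 for Sox10, 2.0 for Erbb3, 1.3 for Fgfr3 and -1.1 for S100b. For Sox10 the authors' deposited value was thus 2.2 ± 0.377 (SE), against 4.61 in the edgeR fit of the deposited counts and 4.75 ± 1.03 in a DESeq2 fit of the same counts. What the authors' DESeq2 settings were is not given in the sources used here. The authors' deposited Cufflinks table gives log2 ratios, turned here to VPA over control, of 2.18 for Erbb3, 1.59 for Fgfr3 and -1.42 for S100b. The authors' deposited Salmon and sleuth table lists 1 transcript for each of these 3 genes. Turned from natural log to log2, that deposited table has ENSRNOT00000006796 of Erbb3 at 2.30 ± 0.276, ENSRNOT00000023144 of Fgfr3 at 1.52 ± 0.459 and ENSRNOT00000001743 of S100b at -1.34 ± 0.381 (SE). The edgeR values of Erbb3, Fgfr3 and S100b lay within 1 standard error of these sleuth values, while those of Sox10 differed most between tables.

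**Figure D2:**
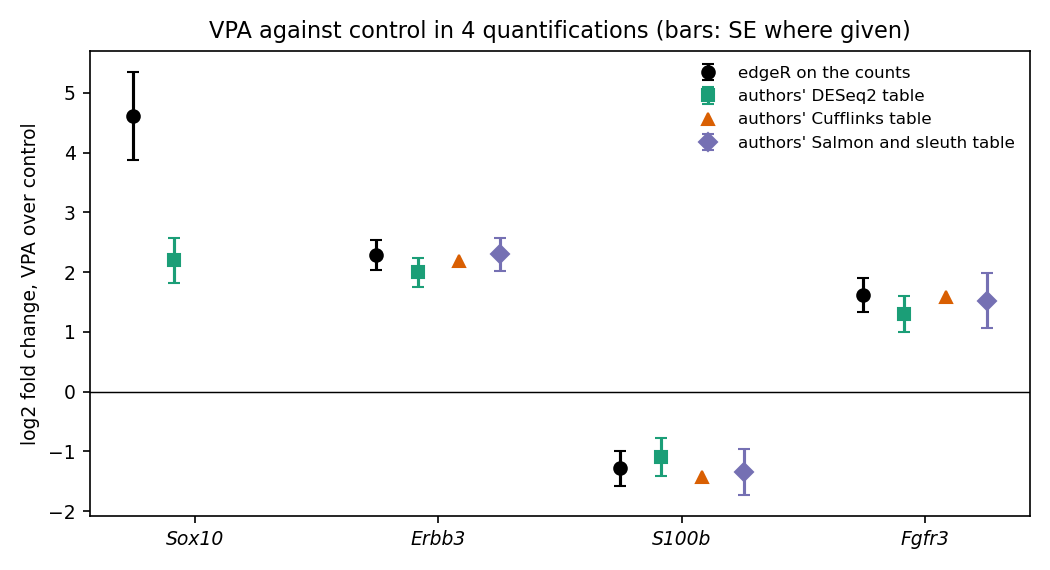
Log2 fold change of VPA over control for the 4 genes (vertical axis) by edgeR on the deposited counts and in the authors' DESeq2, Cufflinks and Salmon and sleuth tables. Bars are standard errors where the source gives one. Sox10 is at 4.61 by edgeR and 2.2 in the authors' DESeq2 table, and S100b is below 0 in all 4.

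Lithium against control is a comparison whose lithium libraries took no part in choosing the genes, although its controls did. None of the 4 passed edgeR's quasi-likelihood test, and 0 of 12719 genes (0.0%) did. The lithium and control libraries overlapped for each of the 4, while 1.71% of the genes tested had every lithium library above the controls and 1.57% had every one below. At an unadjusted p under 0.05 there were 116 genes by edgeR and 113 by DESeq2, which also called 0. Sox10 had a log2 fold change of 1.12 ± 1.03 (SE; 95% interval -1.12 to 3.36; edgeR adjusted p = 1). Its 8 counts in lithium against 3 in control give a ratio of 2.33 with an exact interval of 0.560 to 13.7. Without lithium library 3 the log2 value was -0.12. A difference of Sox10 was therefore not detectable at this depth, and the interval spans both a decrease and a rise of several fold.

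Erbb3 came nearest to a difference with lithium, at 0.43 ± 0.25 on the log2 scale (SE; 95% interval -0.12 to 0.98; edgeR adjusted p = 1). That value ran from 0.25 without lithium library 2 to 0.70 without control library 3, and did not pass in any of the fits without 1 library. Its summed counts, 264 in lithium and 174 in control, gave a ratio of 1.33 with an exact interval of 1.09 to 1.62, which covers counting error only and leaves out the spread between libraries. Lithium libraries 2 and 1 bounded its range at 9.12 and 5.86 CPM, which took in the highest control library. Fgfr3 differed by 0.20 ± 0.30 (95% interval -0.45 to 0.85; edgeR adjusted p = 1), and by -0.08 without lithium library 2. S100b differed by -0.09 ± 0.28 (95% interval -0.69 to 0.52; edgeR adjusted p = 1). That value was 0.04 without lithium library 3 and 0.02 without control library 1. These intervals do not show that lithium left the genes at the control level.

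VPA and lithium cells were compared at the same concentration and time. The VPA libraries are shared with the contrast that chose the genes, so the tests are not independent of the choice. Of all genes tested, 7.93% passed edgeR's quasi-likelihood test (714, or 5.61%, higher and 295, or 2.32%, lower in VPA cells), and so did all 4 genes. Sox10 was higher in VPA cells by 3.49 ± 0.62 on the log2 scale (SE; 95% interval 2.13 to 4.86; edgeR adjusted p = 0.00585). With 1 library left out the Sox10 value ran from 3.11 without VPA library 3 to 4.73 without lithium library 3. The ratio of its summed counts, 90 in VPA and 8 in lithium, was 11.7 with an exact interval of 5.69 to 27.9.

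Among the receptors, Erbb3 was higher in VPA than in lithium cells by 1.85 ± 0.24 (SE; 95% interval 1.32 to 2.39; edgeR adjusted p = 0.00134), a 3.62-fold difference. Fgfr3 was higher by 1.43 ± 0.28 (95% interval 0.82 to 2.03; edgeR adjusted p = 0.00949), a 2.69-fold difference. S100b was lower in VPA than in lithium cells, with a log2 difference of -1.20 ± 0.30 (95% interval -1.84 to -0.55; edgeR adjusted p = 0.0295). The S100b call was marginal, and leaving out any 1 of several libraries lost it. Its adjusted p was 0.0662, 0.103 and 0.0936 without VPA library 1, 2 or 3, and 0.133 and 0.0623 without lithium library 1 or 2. In each of these fits the log2 difference kept its sign.

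**Figure D3:**
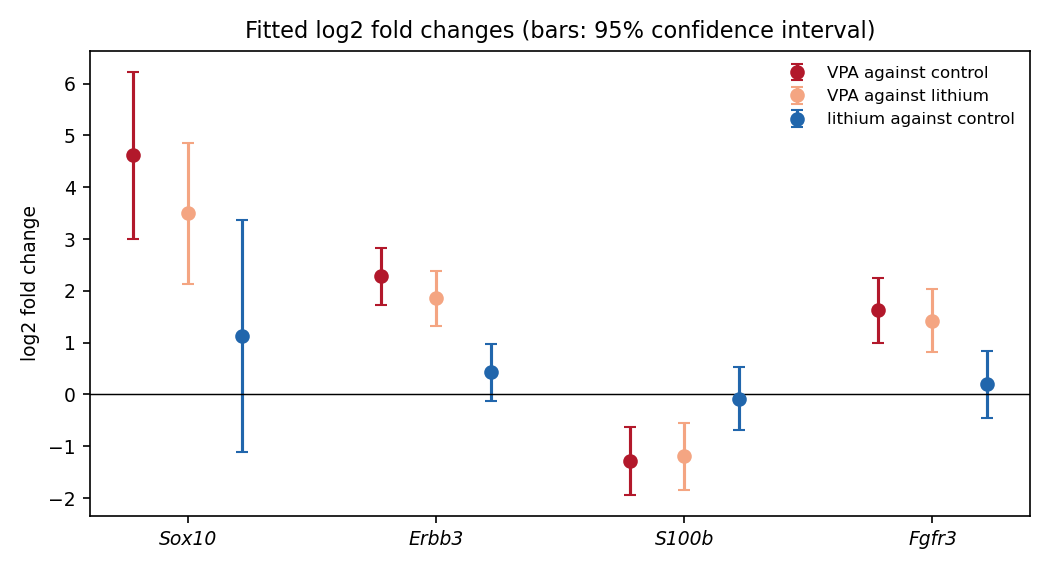
Fitted log2 fold changes (vertical axis) of the 4 genes for VPA against control, VPA against lithium and lithium against control, with 95% confidence intervals as bars. The lithium against control intervals cross 0 for all 4, and the widest is that of Sox10, from -1.12 to 3.36.

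The plot of fitted fold changes sets the 3 comparisons side by side. VPA against control and lithium against control share their controls, and VPA against control and VPA against lithium share their VPA libraries, so they are not independent readings.

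Other genes of these lineages could be followed only where the authors' tables pair an identifier with a name. Those tables name 1384 genes, listed mostly for their p-values for VPA on these same libraries. A count of calls among named genes is therefore not independent evidence and was read against no background. Of 24 Schwann cell and myelin genes listed, 8 had a name and enough counts, among them Sox10, Erbb3 and S100b. By edgeR's quasi-likelihood test 5 of the 8 rose and 3 fell in VPA against control. Their median log2 fold change was 2.24, which is not set against all genes because named genes were listed mostly for VPA. Against lithium 5 rose, 2 fell and 1 did not pass, with a median of 2.07. In lithium against control 0 of 8 passed. Mbp and Gfap, which mark myelinating and astrocytic glia, have no name in the tables and were not analysed here.

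Ngfr, the low-affinity neurotrophin receptor p75 carried by neural crest and immature Schwann cells, was among those that rose. It stood at 25.9, 27.3 and 34.5 CPM in VPA libraries, 4.39, 3.33 and 3.77 CPM in lithium libraries and 4.54, 3.58 and 5.24 CPM in control libraries. VPA exceeded both other groups without overlap, with a log2 fold change of 2.71 ± 0.23 against control (SE; edgeR adjusted p = 0.000162) and 2.93 ± 0.23 against lithium. The adhesion molecule L1cam, found on axons and on non-myelinating Schwann cells, rose by 2.96 ± 0.36 against control (edgeR adjusted p = 0.00103). The integrin subunit Itga4, carried by migrating crest cells, rose by 2.19 ± 0.40 (edgeR adjusted p = 0.00596). 

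The genes of the Schwann cell list that fell beside S100b were Prx and Sox2, and their calls were marginal. Prx, a structural protein of myelinating Schwann cells, had 24.0, 17.1 and 8.84 CPM in VPA libraries and 32.1, 30.6 and 52.6 CPM in control libraries. Its log2 change was -1.21 ± 0.33 (edgeR adjusted p = 0.0448). With the replicate block the edgeR adjusted p was 0.0509 over all 9 libraries and 0.106 in VPA and control alone. Without VPA library 2 or 3, lithium library 2 or 3, or control library 1 or 3 its adjusted p was 0.116, 0.106, 0.0563, 0.0509, 0.0669 and 0.130, in that order. Sox2, a stem cell factor also expressed by immature Schwann cells, changed by -0.73 ± 0.21 (edgeR adjusted p = 0.0489). That call was lost when any 1 of the 9 libraries was left out, with adjusted p from 0.0506 without control library 2 to 0.182 without VPA library 1. Values without the others were 0.0884 and 0.0920 for VPA libraries 2 and 3, 0.0609, 0.0577 and 0.0675 for lithium libraries 1, 2 and 3, and 0.101 and 0.129 for control libraries 1 and 3.

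Of 22 neural crest regulators listed, Sox10 and Id3 had a name and enough counts. Id3, an inhibitor of basic helix-loop-helix factors, was at 84.6, 71.3 and 108 CPM in VPA libraries and 139, 158 and 166 CPM in control libraries. Its log2 change was -0.82 ± 0.22 (SE; edgeR adjusted p = 0.0402). The call was lost without VPA library 1 or 2, with adjusted p of 0.127 and 0.15, without lithium library 3 at 0.0511, and without control library 1, 2 or 3 at 0.0652, 0.0754 and 0.0859. Of 20 astrocyte genes, Fgfr3, S100b, Id3 and the intermediate filament Vim had a name and enough counts, of which 1 rose and 2 fell. Vim was at -0.73 ± 0.24 (edgeR adjusted p = 0.0791, or 0.0463 without VPA library 2). A DESeq2 fit of the same counts called Vim (DESeq2 adjusted p = 0.0121). With the replicate block its edgeR adjusted p was 0.0495 over all 9 libraries and 0.0275 in VPA and control alone. The median over these 4 was -0.775.

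Of 18 oligodendrocyte lineage genes, Sox10, Ugt8 and Pdgfra had a name and enough counts. They gave 2 rises, 0 falls and a median log2 fold change of 2.44. Ugt8, which makes the myelin lipid galactosylceramide, had 2.34, 1.93 and 3.61 CPM in VPA libraries and 0.726, 0.543 and 0.178 CPM in control libraries. It rose by 2.44 ± 0.54 (SE; edgeR adjusted p = 0.0167), a call lost without VPA library 3 (adjusted p = 0.0656). Pdgfra, the receptor of oligodendrocyte precursors and of fibroblasts, was at 0.63 ± 0.26 and did not pass (edgeR adjusted p = 0.178). In lithium against control it was at -0.76 ± 0.28 (95% interval -1.36 to -0.16; edgeR adjusted p = 1), and in VPA against lithium it was higher by 1.39 ± 0.27 (edgeR adjusted p = 0.00941). Of 10 melanocyte genes, Mitf, the factor that drives the pigment programme, and Pmel, a melanosome protein, had a name and enough counts. Both rose. Mitf was at 1.00 ± 0.25 (edgeR adjusted p = 0.0280, or 0.107, 0.0777, 0.0662 and 0.0703 without VPA library 1, VPA library 2, control library 2 or control library 3). Pmel was at 0.89 ± 0.19 (edgeR adjusted p = 0.0144, or 0.0516 without VPA library 3 and 0.0618 without control library 1).

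For the ErbB pathway, 24 genes were listed and 3 had a name and enough counts, Erbb3, Nrg1 and Shc1. In this set, named mostly for VPA, there were 2 rises, 0 falls and a median log2 fold change of 1.86. Nrg1 encodes neuregulin-1, the ligand that binds Erbb3. It stood at 10.8, 7.82 and 10.4 CPM in VPA libraries, 2.67, 2.54 and 4.47 CPM in lithium libraries and 2.63, 1.95 and 3.38 CPM in control libraries. The VPA libraries were again above all others, and Nrg1 rose by 1.86 ± 0.30 against control (SE; edgeR adjusted p = 0.00366) and by 1.58 ± 0.29 against lithium (edgeR adjusted p = 0.00767). Shc1, an adaptor that couples ErbB receptors to Ras, was at -0.49 ± 0.15 against control (edgeR adjusted p = 0.0643). A DESeq2 fit of the same counts called Shc1 (DESeq2 adjusted p = 0.00752). With the replicate block its edgeR adjusted p was 0.0391 over all 9 libraries and 0.03 in VPA and control alone. In the authors' deposited Cufflinks table Nrg1 was at 2.26 FPKM in VPA and 0.64 FPKM in control cells. The same deposited table has Areg, an EGFR ligand, at 124 FPKM in VPA and 192 FPKM in control cells. Egfr, Erbb2 and Erbb4, the partner receptors, have no name in the tables and were not analysed here.

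For the FGF pathway, 33 genes were listed and 6 had a name and enough counts. Of these, named mostly for VPA, 4 rose, 0 fell and 2 did not pass, with a median log2 fold change of 1.46. Fgf11, an intracellular FGF homologous factor, rose by 2.12 ± 0.38 (SE; edgeR adjusted p = 0.00590). Its groups did not overlap, at 7.02 to 8.78 CPM in VPA and 0.651 to 2.36 CPM in control libraries. Flrt3, a membrane protein that binds FGF receptors, rose by 1.30 ± 0.24 (edgeR adjusted p = 0.00738). Fgfr1, the paralogue of Fgfr3, had 23.2, 23.1 and 28.1 CPM in VPA libraries and 13.6, 11.9 and 17.5 CPM in control libraries, a log2 change of 0.79 ± 0.21 (edgeR adjusted p = 0.0366). That call was lost without VPA library 1, 2 or 3 at adjusted p of 0.0789, 0.0781 and 0.116, without lithium library 1 at 0.0527, and without control library 1 or 2 at 0.108 and 0.111.

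The remaining FGF genes did not pass edgeR's test in the fit of all libraries. A DESeq2 fit of the same counts called Flrt1 (DESeq2 adjusted p = 0.0366) and Spry1 (DESeq2 adjusted p = 0.0258). Flrt1, a relative of Flrt3, was at 1.71 ± 0.50 (edgeR adjusted p = 0.0553, and 0.0499 and 0.0486 without lithium library 2 or 3). With the replicate block its edgeR adjusted p was 0.0187 over all 9 libraries and 0.0167 in VPA and control alone. Spry1, a feedback inhibitor of FGF signalling, was at -1.21 ± 0.40 (edgeR adjusted p = 0.0873, or 0.0229 without lithium library 3). With the replicate block its edgeR adjusted p was 0.0117 over all 9 libraries and 0.00226 in VPA and control alone. Fgf9, an FGF ligand, had too few counts for the test, with 51, 19 and 6 in VPA, 2, 6 and 3 in lithium and 6, 3 and 0 in control libraries. Its highest and lowest VPA libraries differed widely, and the lowest equalled the highest control and lithium libraries. Fgfr2 and Fgfr4 have no name in the tables and were not analysed here.

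Of 17 genes listed for the S100 family, its receptor Ager included, 3 had a name and enough counts, S100b, S100a4 and S100a16. All 3 fell, with a median log2 fold change of -1.81, while 2.99% of all genes tested were called lower. The authors listed all 3 for VPA against control on these same libraries, so this count tells nothing about the whole family. S100a4, a calcium-binding protein abundant in motile mesenchymal cells, had 383, 662 and 418 CPM in VPA libraries. It had 2460, 1078 and 1458 CPM in lithium libraries and 1780, 3426 and 1453 CPM in control libraries, so every VPA library was below all lithium and control libraries. It fell by 2.19 ± 0.39 against control (SE; edgeR adjusted p = 0.00575). S100a16 fell by 1.81 ± 0.32 (edgeR adjusted p = 0.00529) and was at -1.61 against lithium (edgeR adjusted p = 0.00981). Both S100a16 calls were lost with replicates 1 and 2 only (edgeR adjusted p = 0.0634 and 0.093). The authors' deposited Cufflinks table, also a list of genes that differed between VPA and control, held 5 family members. All were lower in VPA cells, among them S100a6 at 2280 FPKM in VPA and 4760 FPKM in control cells. Per length S100a4, at 1020 FPKM in VPA and 4830 FPKM in control cells in that deposited table, was far above S100b at 1.01 and 2.69 FPKM.

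**Figure D4:**
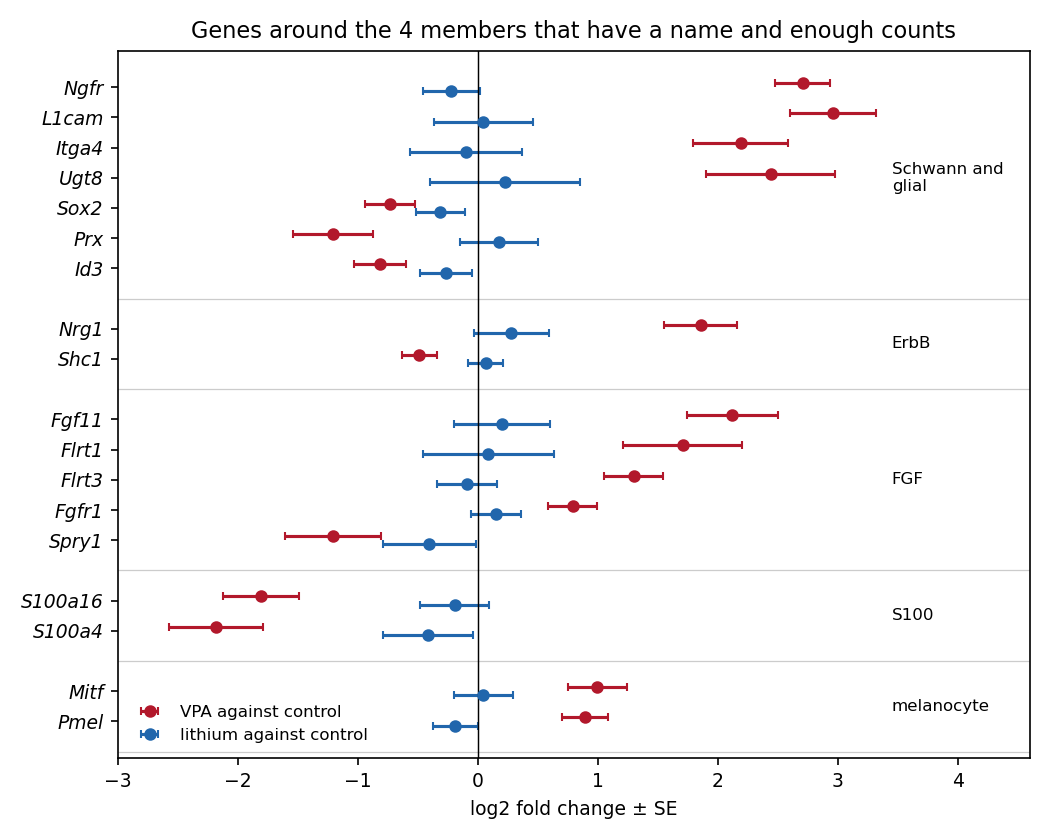
Log2 fold change with its standard error (horizontal axis) of the tested genes of the glial, ErbB, FGF, S100 and melanocyte lists, for VPA against control and lithium against control. Sox10, Erbb3, S100b and Fgfr3 are left out, as are Vim and Pdgfra. Ngfr is at 2.71 and S100a4 at -2.19 for VPA, while no gene shown passed the test for lithium.

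The plot of list genes shows VPA values on both sides of 0. The largest lithium value among the genes of that plot was that of S100a4, at -0.41 ± 0.37 (SE; edgeR adjusted p = 1). Pdgfra, left out of the plot, was further from 0, at -0.76 ± 0.28 (SE). On the fibroblast and mesenchymal list all 9 tested genes were lower in lithium than in control cells, with a median of -0.762. The controls are shared with the contrast by which most of them were named, and in which 7 of the 9 were lower. This count is therefore not independent evidence of a lithium difference. In lithium against control 0 genes of any of the 11 lists passed edgeR's quasi-likelihood test.

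Named markers of other cell types also differed between the groups, and their part in the values above was not tested. Names came mostly from genes listed for VPA on these same libraries, so the counts of rises and falls here are not independent evidence. Of all genes tested, 5.71% were called higher and 2.99% lower in VPA against control. Of 20 pan-neuronal genes 9 had a name and enough counts. Of these 8 rose and 0 fell in VPA cells, with a median log2 fold change of 2.56. With Elavl3, which had too few counts for the test, their summed level ranged from 337 to 469 CPM in VPA, 136 to 174 CPM in lithium and 142 to 199 CPM in control libraries. The largest part of that sum was Uchl1, at a mean of 192 CPM in VPA, 92.3 CPM in lithium and 104 CPM in control cells. Uchl1 was the 1 gene that did not pass against control (edgeR adjusted p = 0.0524). The authors' deposited DESeq2 table lists Uchl1 at a DESeq2 adjusted p of 0.027. Of 16 fibroblast and mesenchymal genes 9 had a name and enough counts, of which 1 rose and 6 fell, with a median of -1.78. Their summed level ranged from 4020 to 5550 CPM in VPA, 8110 to 10000 CPM in lithium and 11100 to 13400 CPM in control libraries. Most of that sum came from Vim, which did not pass edgeR's test, and Fn1. Vim averaged 2639 CPM in VPA and 4392 CPM in control cells, and Fn1 1483 and 5080 CPM. Lum, a collagen-binding proteoglycan, had 0 counts in every VPA library, 15, 3 and 0 in lithium libraries and 54, 13 and 6 in control libraries. The Schwann cell list summed to 94.0 to 99.5 CPM in VPA, 65.8 to 78.9 CPM in lithium and 58.3 to 90.7 CPM in control libraries. The serotonergic genes Maob and Htr5b together had 6.96 to 9.75 CPM in VPA, 0.770 to 1.21 CPM in lithium and 1.09 to 1.63 CPM in control libraries. Maob encodes monoamine oxidase B and Htr5b a serotonin receptor, and both rose.

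The genes whose levels were most like each member were taken by Pearson correlation of log2(CPM + 0.5) over the 9 libraries, among 1173 or 1174 candidates with a symbol and a mean of 1 CPM or more. The 9 points split into VPA and the rest, so every r is dominated by that split, and the points share library and depth. Nearest to Sox10 were Dusp15, Gfpt2, Olfm2, Ocln and Nrip3, with r from 0.990 to 0.987. Over the 6 lithium and control libraries alone Dusp15 had an r of 0.846 with Sox10, where Sox10 rests on the 8 and 3 summed counts above. Nearest to Erbb3 were Dock10, Adgrb2, Sptb, Map3k9 and Nexn, with r from 0.986 to 0.977. Nearest to Fgfr3 were Adgrb2, Nefm, Faim2, Cdkn1c and Dpyd, with r from 0.98 to 0.975, so Adgrb2 was near both receptors. Nearest to S100b were Csad, Ifitm3, Nr2f1 and Col6a1, with r from 0.962 to 0.95. Over the 6 lithium and control libraries r with S100b ranged over these genes from 0.579 for Nr2f1 to 0.864 for Csad.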

How the data were processed

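RNA of 9 RN46A libraries, 3 in each of 3 groups by the submitters' titles, was extracted with Trizol at a RIN above 7 and sequenced, per the labels' protocols. The submitters' processing notes name DESeq2, sleuth, Cufflinks 2.2.1, CASAVA 1.8, Salmon 0.6.1, kallisto 0.42.4 and STAR 2.5.1 without roles. The build of the deposited coordinates, and whether their starts count from 0 or 1, is not given in the sources used here. The authors deposited whole-number counts per Ensembl gene, not normalized. Their DESeq2 table holds log2 fold changes and adjusted p-values, per the file headers (1212 genes). A table titled for kallisto holds the same 1212 lines, so it was left out. The authors' Cufflinks table holds 1 FPKM value per group, log2 ratios and q-values, per the file headers. The authors' sleuth table holds natural log effects of single transcripts, a scale inferred here from a median ratio of 0.697 to the Cufflinks log2 ratios over 577 genes. The authors' lithium table (137 genes, none of the 4) was not analysed, including 6 columns of values per sample.

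In R 4.3.3, edgeR 4.0.16 dropped genes under filterByExpr's minimum count of 10 and scaled libraries by TMM. Its quasi-likelihood model, made robust, took the 3 group means of all 9 libraries together and left 6 residual degrees of freedom. Tests were two-sided, and p-values were adjusted after Benjamini and Hochberg across the 12719 genes kept. The method was tested on simulated counts. A 0 was given a limit of 3 counts, and intervals on counts are exact 95% intervals. Symbols came only from the authors' tables (1384 identifiers). Promoters were from RefSeq.

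The 4 genes, 11 gene lists and the naming rule were chosen with earlier results of these data known. That rule takes the 4 genes, 5 genes of highest correlation with each, up to 4 others per list by p, and fixed receptors and markers, some of which are not reported here. Fgf9, Areg, S100a6, Lum, Uchl1 and Elavl3 were named after their values were seen. Over 10288 genes same-numbered VPA and control libraries shared their deviations from the group means (correlations 0.605, 0.532 and 0.526), so their title numbers were taken as pairs in a fit with a replicate block. Lithium and control libraries shared deviations only in the last-numbered replicate (-0.42, -0.0808 and 0.804), and so did VPA and lithium (-0.193, 0.0555 and 0.537). The block over all libraries also took lithium numbers as pairs, although lithium replicates 1 and 2 did not pair with either group. Alternatives were DESeq2 1.42.0, other scalings, other filters, the block, the 2 groups alone and leaving out each library. Replicates 1 and 2 only was added after seeing the data.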

Additional observations from a re-analysis of the deposited data

How the results depend on the processing

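The 4 genes were refitted under 19 alternatives, giving 226 values, of which 208 kept their direction and their side of the threshold, 13 kept the direction but were no longer called, and 5 changed sign. Values for lithium against control are among them, where nothing was called in any fit and no call could be lost. Sox10 and Erbb3 kept their calls for VPA against control and VPA against lithium in all of these fits. The calls lost were those of S100b and, with replicates 1 and 2 only, of Fgfr3.

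With 1 library left out, S100b ranged from -1.41 to -1.18 for VPA against control and from -1.33 to -0.951 for VPA against lithium (log2). With replicates 1 and 2 only, S100b was at -1.20 and -1.27 in these comparisons (edgeR adjusted p = 0.12 and 0.101). Fgfr3 was then at 1.22 against lithium (edgeR adjusted p = 0.0702). Among list genes, that setting also lost the VPA against control calls of Id3, Prx, Sox2, Ugt8, Mitf, Pmel, Fgfr1, S100a16, Htr5b and Fn1. Prx was then at -0.61 (edgeR adjusted p = 0.23). The calls of Ngfr, L1cam, Itga4, Nrg1, Fgf11, Flrt3, S100a4 and Maob were kept, and Spry1 was called (edgeR adjusted p = 0.0221). For lithium against control, where nothing was called, values with 1 library left out crossed 0 for Sox10 (-0.12 to 1.93), S100b (-0.34 to 0.043) and Fgfr3 (-0.079 to 0.39), and S100b was at 0.075 with replicates 1 and 2 only. Sox10 gave no value for lithium against control in fits of the 2 groups alone, where it had too few counts. The cause of these changes was not tested.

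The count of genes called over the whole table moved more. For VPA against control, 1106 in all, it was 638 to 1026 with 1 library left out. The lowest were 638, 698 and 669 without VPA library 1, 2 or 3, and 694 without control library 1. For VPA against lithium, 1009 in all, it was 544 to 1197, with 638, 659 and 639 without VPA library 1, 2 or 3 and 553 and 544 without lithium library 1 or 2. With replicates 1 and 2 only it was 529 and 525. With the replicate block over all libraries it was 1741 for VPA against control and 1609 for VPA against lithium, and 2408 for VPA against control in a blocked fit of those groups alone. The block changed no call of the 4 genes. Depth limits Sox10 most, at 3 counts over the controls.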
